A study of Mus musculus with 8 samples.

Results

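MurERV4 and RLTR14 are endogenous retroviruses of the mouse genome, and the sequences described here are the testis small RNAs whose deposited annotation begins with either name. The deposited list holds 6246223 distinct sequences, of which 29958, or 0.480%, carried such a name. Of these, 23108 were 24 to 33 nt long, the length range of piRNAs, and they made up 1.46% of all repeat-annotated sequences of that length. The names were chosen by 2 measured values, their low share of A at position 10 and their high share of sequences that map to 1 genome position. Both are therefore given as descriptions only.

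The small RNA came from mouse testes, size selected to 19 to 33 nt. The 8 libraries form 8 groups of 1. They were homozygous and heterozygous Tdrd6 knockouts at 18 and 25 days after birth and at 6 weeks, and homozygous and heterozygous Tdrd1 knockouts at 18.5 days after conception. No wild-type group is among them, so every library carries at least one mutant allele. The deposited list pools all libraries, with no column for any of them and no read numbers, so no genotype or age was compared and a sequence counts once however often it was read.

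piRNAs guide Piwi proteins to RNA in germ cells and restrain transposons. A piRNA cut from a long single-stranded precursor usually starts with U, written T here. In the ping-pong cycle, a Piwi protein cuts a complementary RNA so that the 5′ ends of guide and product overlap by 10 nt, which places an A at position 10 of the product. In adult mouse testes most piRNAs instead come from long pachytene precursors, transcribed largely from 1 strand. Tdrd1 and Tdrd6 are Tudor proteins, which bind methylated arginines of Piwi proteins. An endogenous retrovirus has an internal region, marked -int in these names, between 2 long terminal repeats.

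The following sequences show what the small RNAs look like. Each is the longest sequence of a 5′ end with many length forms, placed by exact match on a noncoding GENCODE transcript of build GRCm38. Capitals mark positions 1 and 10.
RLTR14 on chr7:73781897-73781929, minus strand, within Gm10619: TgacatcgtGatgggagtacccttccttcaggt
RLTR14 on chr7:73781730-73781761, minus strand, within Gm10619: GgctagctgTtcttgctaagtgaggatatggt
RLTR14-int on chr6:127809289-127809321, plus strand, antisense to Gm42811: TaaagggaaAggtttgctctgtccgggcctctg
RLTR14-int on chr6:127809222-127809254, plus strand, antisense to Gm42811: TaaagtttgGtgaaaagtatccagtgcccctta
Of these 4 sequences, 3 start with T and 1 has A at position 10. The 5′ end at chr7:73781730-73781761 carried 8 distinct sequences of at least 25 nt, and each of the other ends carried 10, of every length from 24 to 33 nt.

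In all, 4 annotation names made up the set. MurERV4_19-int had 9140 sequences of 24 to 33 nt, RLTR14-int 6942, MurERV4-int 4619 and RLTR14, the long terminal repeat, 2407. The length with most sequences was 27 nt under every name. Over all names, 3486 sequences were 27 nt, 3002 were 28 nt, 3001 were 29 nt and 3133 were 30 nt, so a second maximum stood at 30 nt. It came mainly from MurERV4-int, which rose from 626 sequences at 29 nt to 739 at 30 nt. MurERV4_19-int had 1158 and 1161, RLTR14-int 862 and 869, and RLTR14 355 and 364. Sequences of 29 to 31 nt were 35.4% of the set, against 29.7% of unannotated and 20.7% of mRNA-annotated sequences. Among other retroviruses the share was 33.0% for MMERVK10C and RLTR10, 37.3% for IAPEz-int and 32.4% for RLTR6 and MMVL30, on both sides of the value here. In mouse testes the Piwi protein Miwi is known to bind longer piRNAs than Mili does.

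**Figure D1:**
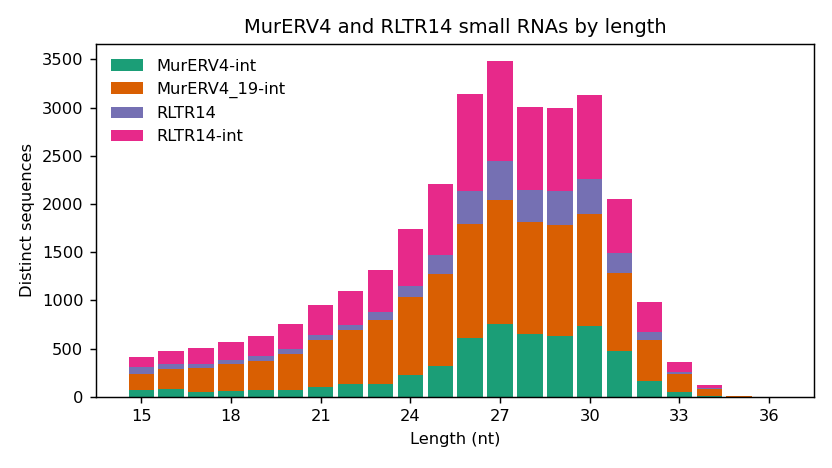
Number of distinct sequences (vertical axis) by length in nt (horizontal axis), stacked by annotation name. The largest bar is 27 nt, with 3486 sequences, and a second maximum stands at 30 nt, with 3133, mainly through MurERV4-int.

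T was the first base of 66.6% of the sequences (95% interval 65.9 to 67.2%). By name the share was 77.2% for MurERV4-int, 73.4% for RLTR14, 62.8% for RLTR14-int and 62.2% for MurERV4_19-int. Intervals for the internal names MurERV4-int and MurERV4_19-int did not overlap, at 76.0 to 78.4% and 61.2 to 63.2%. T was first in 71.1% of sequences of 29 to 31 nt and 63.0% of those of 25 to 27 nt. RLTR14 had the other order, with 72.4% at 29 to 31 nt and 75.0% at 25 to 27 nt, but the intervals overlapped (69.4 to 75.3% and 72.1 to 77.7%). Of the other sets, IAPEz-int (62.0% and 60.7%), unannotated (72.2% and 68.6%) and mRNA-annotated sequences (80.5% and 78.8%) had the order of the pooled members. For IAPEz-int the intervals overlapped slightly. MMERVK10C and RLTR10 (64.8% and 70.6%), RLTR6 and MMVL30 (66.8% and 70.2%) and other repeats (71.5% and 73.3%) had the opposite order. These intervals treat sequences as independent, which overlapping sequences of a locus are not, and cover counting error only.

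A stood at position 10 in 28.7% of the sequences, the property by which the names were chosen. The share was 41.1% for MMERVK10C and RLTR10, 45.7% for IAPEz-int, 40.6% for RLTR6 and MMVL30, 36.1% for other repeats and 28.5% for unannotated sequences. Set against the average of its neighbours, positions 9 and 11, the share at position 10 was 1.75 points higher here, against 16.8 points for MMERVK10C and RLTR10. The names were not alike: A at position 10 reached 35.0% in MurERV4-int, where positions 9 and 11 averaged 32.5%, and 26.1% in RLTR14-int, where they averaged 26.8%. A single genome position was recorded for 92.3% of the sequences, ranging from 84.2% for MurERV4-int to 98.5% for RLTR14-int. IAPEz-int had 13.6% and unannotated sequences 89.9%.

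**Figure D2:**
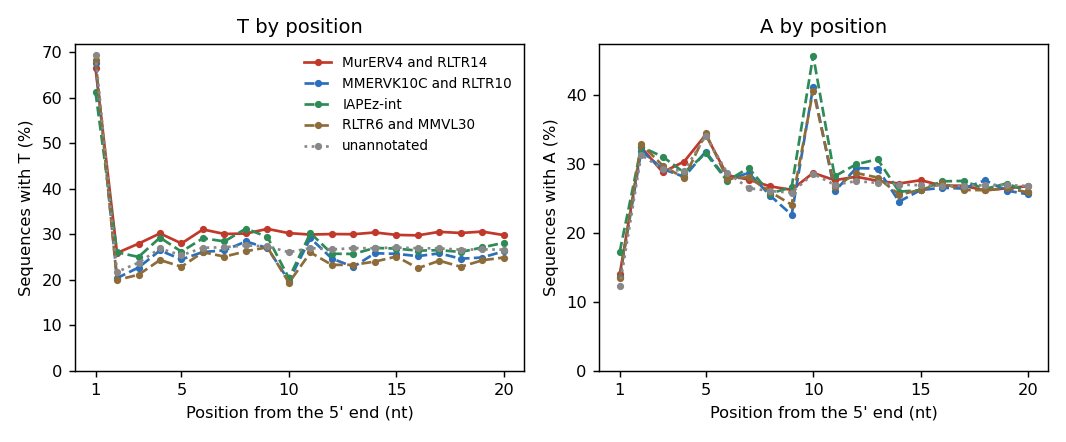
Share of sequences of 24 to 33 nt with T (left) and with A (right) at positions 1 to 20 from the 5′ end, for MurERV4 and RLTR14 (solid red), 3 other retrovirus sets (dashed) and unannotated sequences (dotted). At position 10, A reaches 28.7% in MurERV4 and RLTR14, near the 28.5% of unannotated sequences, and 40.6 to 45.7% in the other retroviruses.

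A 5′ end, taken as the first 20 nt, carried 2.48 distinct sequences and a 3′ end 2.05. MurERV4_19-int had most per 5′ end, 3.21, and RLTR14 fewest, 1.69. Of 9319 5′ ends, 46.6% had sequences of at least 2 lengths. Among 5′ ends with a sequence of 29 to 31 nt, 53.0% also had one of 25 to 27 nt, so many ends appeared in both length classes. That share was 31.3% for MMERVK10C and RLTR10 and 47.6% for IAPEz-int.

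Opposite-strand partners were counted next. A 5′ end had a partner at 10 nt when its first 10 bases were the reverse complement of the first 10 of a sequence of the set. Only bases were compared, not genome positions or contigs, so matches between unrelated loci also counted. Such matches can grow with the number of 5′ ends in a set. There were 9319 here, 32312 for MMERVK10C and RLTR10, 21793 for IAPEz-int and 17596 for RLTR6 and MMVL30. Of the 5′ ends, 11.1% had one (95% interval 10.4 to 11.7%), against a mean of 8.26% (SD 0.306) over overlaps of 11 to 20 nt, whose highest value was 8.93%. The 10-nt overlap was therefore 1.34 times the mean of the others. An A at position 10 pairs with the first T of a partner, and a low share of it served to choose the names. The partner shares at 10 nt and their ratios are thus not independent of the choice and are descriptions. Among sequences that map to 1 position, 10.4% had a partner at 10 nt and a mean of 7.68% at longer overlaps, a ratio of 1.35. In the same selection RLTR6 and MMVL30 lay lower at both, with 9.15% and 3.68%, a ratio of 2.49. MMERVK10C and RLTR10 had 20.3% and 8.73%, a ratio of 2.32, and IAPEz-int 31.8% and 13.1%, a ratio of 2.43. That selection held 8494 5′ ends here, 5421 for RLTR6 and MMVL30, 12715 for MMERVK10C and RLTR10 and 5325 for IAPEz-int. Comparing the whole overlap instead of 10 bases left 11.1% at 10 nt but lowered the mean of longer overlaps to 5.11%. By name, 3.22% of MurERV4-int ends had a partner at 10 nt, against a mean of 1.78% at longer overlaps, a ratio of 1.80. RLTR14 had 14.6% and 9.43%, a ratio of 1.55. RLTR14-int had 8.36% and 6.11%, a ratio of 1.37, and MurERV4_19-int 13.6% and 10.6%, a ratio of 1.28. The name with the lowest share at 10 nt thus had the highest ratio. With the whole overlap compared, the mean at longer overlaps was 0.462% for MurERV4-int and 4.08% for RLTR14. It was 5.56% for RLTR14-int and 9.07% for MurERV4_19-int.

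**Figure D3:**
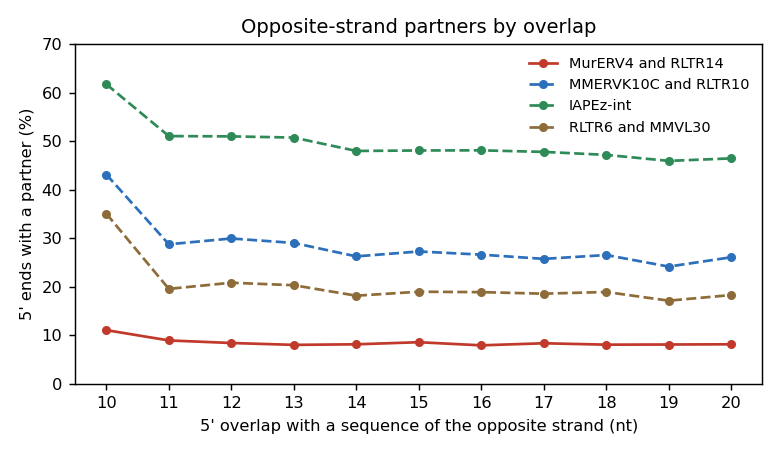
Share of distinct 5′ ends (vertical axis) with an opposite-strand partner in the same set, by the overlap of the 5′ ends in nt (horizontal axis). Partners were matched by 10 bases, not by genome position. MurERV4 and RLTR14 (solid) have 11.1% at 10 nt and at most 8.93% at longer overlaps. The other sets (dashed), which hold more 5′ ends and more sequences that map to several positions, lie higher at every overlap plotted. The names were chosen for low A at position 10, so the value at 10 nt is not independent of the choice.

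The 21329 sequences that map to 1 position were chained by exact overlaps of at least 16 nt on either strand, and each chain was called a contig. They formed 1746 contigs, of which 1247 held a single sequence. The 5 largest held 47.5% of the sequences, against 14.3% for MMERVK10C and RLTR10, 28.6% for IAPEz-int and 13.1% for RLTR6 and MMVL30. With 18 nt the share for MurERV4 and RLTR14 was 37.6%, against 6.23%, 17.1% and 11.2% for the other sets in the same order. The other sets were smaller, with 6752 to 16436 sequences that map to 1 position, and that property served to choose the names here. At 16 nt, MurERV4_19-int alone had 87.5% of its 8549 sequences in 5 contigs, and RLTR14-int 75.5% of its 6840. The largest of these MurERV4_19-int contigs held 3586 sequences, as many of that name as the joined contig described next. Shares by name were not counted at 18 nt.

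The largest contig at 16 nt held 4464 sequences, but 545 of its 1288 positions carried more than a single base, so it is not a single stretch of sequence. At 18 nt it separated into a MurERV4_19-int contig of 2518 sequences, another of 1070, a MurERV4-int contig of 782 and smaller ones. The next 4 at 16 nt were an RLTR14-int contig of 1690 sequences over 667 nt, a MurERV4_19-int contig of 1370 over 510 nt, an RLTR14-int contig of 1336 over 526 nt and a MurERV4_19-int contig of 1264 over 400 nt. The MurERV4_19-int contigs of 1370 and 1264 carried more than a single base at 101 and 50 positions. They are thus not single stretches either, and at 18 nt they still had 96 and 50 such positions. The RLTR14-int contigs of 1690 and 1336 had 0. Within contigs of at least 20 sequences, 98.0% of sequences lay on the contig's major strand at 18 nt (95% interval 97.8 to 98.2%) and 93.4% at 16 nt. RLTR6 and MMVL30 had 98.1% at either overlap. At 18 nt MMERVK10C and RLTR10 had 88.1% and IAPEz-int 78.9%. A strong bias to 1 strand thus also occurred elsewhere, though not in every set. At 18 nt, contigs of this size held 83.9% of the MurERV4 and RLTR14 sequences but only 19.8% of those of RLTR6 and MMVL30.

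**Figure D4:**
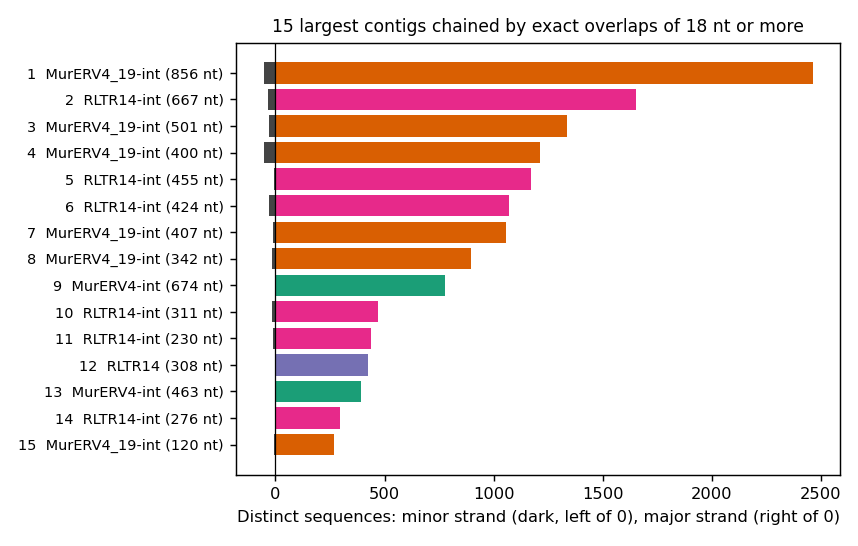
The 15 largest contigs at a minimum overlap of 18 nt, from top to bottom, with distinct sequences on the major strand to the right of 0 (coloured by leading name) and on the minor strand to the left (dark). The longest bar is MurERV4_19-int, with 2464 major-strand and 54 minor-strand sequences.

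Start sites were counted along the 18 contigs of at least 100 sequences that had a single base at every position. These hold 7415 sequences, 34.8% of those that map to 1 position, and 79.8% of the 7415 are RLTR14-int. The values that follow therefore describe mainly that name. A sequence started at 88.0% of T positions (95% interval 85.9 to 89.9%), against 49.0% of A, 48.0% of C and 39.7% of G positions. A T position carried 4.18 distinct sequences and an A position 1.07. T made up 28.3% of contig bases and 62.0% of first bases. Just after a 3′ end, T stood at 28.7% of positions, within the 27.4 to 29.1% found 2 to 10 nt further on. A 5′ end followed immediately after 57.7% of 3′ ends (95% interval 55.8 to 59.7%). At distances of 2 to 20 nt the mean was 54.6% and the highest value 56.8%. The share fell gradually with distance, to 52.0% at 20 nt. Of all positions counted for starts in these contigs, 57.9% carried one, so the share just after a 3′ end was near that of any position.

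The few minor-strand sequences in these 18 contigs differed in base composition from those on the major strand. A stood at position 10 in 76.3% of 135 minor-strand sequences (95% interval 68.2 to 83.2%), against 26.7% of 7280 on the major strand. T was first in 37.8% and 62.0%. Of the 135, 113 were RLTR14-int, 86 of them with A at position 10, 21 were MurERV4_19-int, 17 of them with A, 1 was RLTR14 and none was MurERV4-int. In all contigs of at least 20 sequences the minor-strand share was 74.4% of 351 at 18 nt. At 16 nt, where the joined contig above is included, it was 44.5% of 1201. Of 117 minor-strand 5′ ends, 96, or 82.1%, had a major-strand 5′ end at an overlap of 10 nt (95% interval 73.9 to 88.5%). At other overlaps of 1 to 20 nt the mean was 65.9% (SD 4.86) and the highest value 77.8%, which lies within that interval. An A at position 10 stands opposite a T of the major strand, and 88.0% of T positions carried a start. The pair share is thus not independent of the base shares. Since A at position 10 served to choose the names, its shares by strand and the pair share are descriptions.

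Of the sequences that map to 1 position, 15.9% matched a GENCODE transcript exactly, and 82.8% of those lay in 3 genes. The share was 40.9% for RLTR14, 26.3% for RLTR14-int, 18.9% for MurERV4-int and 0.164% for MurERV4_19-int. Gm42811, a transcript of the TEC class that awaits experimental support, had most. It is a single-exon gene of 2768 nt on the minus strand at chr6:127807951-127810718. Its matches were 1786 RLTR14-int sequences, of which 1740 were antisense to the transcript, that is on the plus strand, and 46 were sense. Its nearest annotated neighbours were Mir7233, a miRNA gene 19808 bp to the left, and Gm23098, a miscellaneous RNA gene 38503 bp to the right.

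RLTR14-int occupied only 4 separate segments of Gm42811, with 559, 447, 189 and 591 sequences from left to right. Sequences of any annotation covered 97.8% of the transcript, 5628 in all, and 3678 of them had no annotation. A further 164 were RMER17A2, at 85.0 per 100 covered nt. RLTR14-int and unannotated sequences were alike in strand, first base and length, but not in A at position 10. The plus strand held 97.4% of RLTR14-int and 98.0% of unannotated sequences. T was first in 62.4% and 61.4%, and 29 to 31 nt made up 34.5% and 34.6%. RLTR14-int had 183 distinct sequences per 100 covered nt and unannotated sequence 212. A at position 10 was at 28.7% in RLTR14-int and 22.9% in unannotated sequences. On the minus strand it was present in 33 of 46 RLTR14-int and 55 of 72 unannotated sequences.

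**Figure D5:**
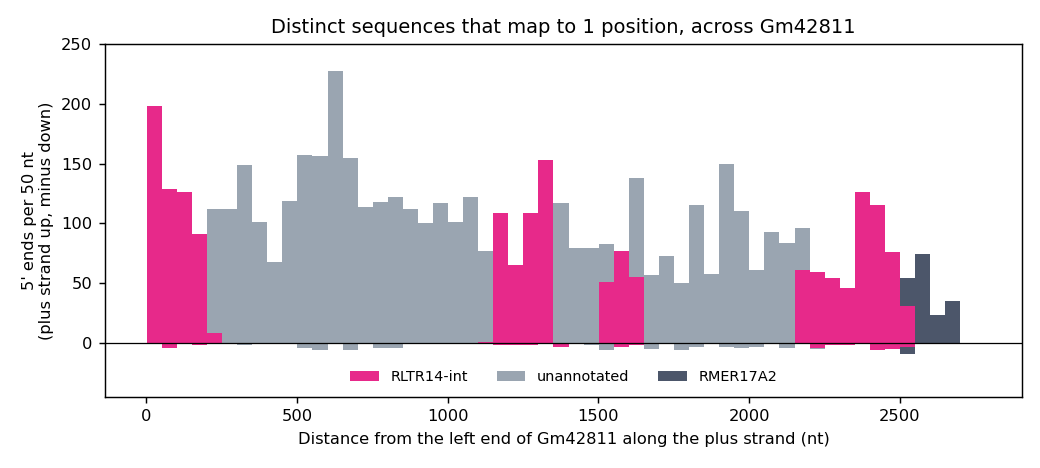
Number of distinct sequences that map to 1 position, by 5′ end in bins of 50 nt along Gm42811 (distance from its left end, in nt), with the plus strand above 0 and the minus strand below. RLTR14-int (pink) fills 4 segments, and unannotated sequences (grey) fill the spaces between them on the same strand.

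A stretch of the plus strand within the rightmost segment shows the start sites. It lies at chr6:127810306-127810425, and capitals mark positions where at least 5 distinct RLTR14-int sequences start.
RLTR14-int stretch: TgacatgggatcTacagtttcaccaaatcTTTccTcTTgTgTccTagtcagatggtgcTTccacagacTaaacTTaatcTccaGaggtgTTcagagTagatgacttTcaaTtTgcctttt
In these 120 nt, 299 sequences start. Of 24 capitals 23 are T, and the stretch holds 42 T in all, so most but not every T was a frequent start.

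Pairs at Gm42811 were counted separately. Its RLTR14-int sequences lie in contigs whose pairs were counted above, so they are not a further set, and the same limits apply. Of 41 minus-strand 5′ ends of RLTR14-int, 32, or 78.0%, overlapped 1 of 520 plus-strand 5′ ends by 10 nt (95% interval 62.4 to 89.4%). At the other overlaps of 1 to 20 nt the mean was 57.8% (SD 7.18) and the highest value 73.2%, which lies within that interval. The following 2 pairs had most distinct sequences, and capitals mark the complementary 10 bases.
Pair 1, plus strand, chr6:127809222-127809254: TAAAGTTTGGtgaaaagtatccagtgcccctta
Pair 1, minus strand, chr6:127809202-127809231: CCAAACTTTAttgggagggttaaatgtaga
Pair 2, plus strand, chr6:127809515-127809546: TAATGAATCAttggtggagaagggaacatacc
Pair 2, minus strand, chr6:127809495-127809524: TGATTCATTAtaattggaagacccacaagc
Both minus-strand sequences have A at position 10, opposite the first T of the partner. In the first pair the plus-strand end carried 10 distinct sequences and the minus-strand end 1. In the second they carried 8 and 3.

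The other transcripts with most matches carried the sense strand. Gm10619, a lincRNA gene on chromosome 7, had 480 sense and 1 antisense RLTR14 sequences, next to 4153 other sequences. Tmem245, a protein-coding gene on chromosome 4, had 537 sense MurERV4-int sequences, all in its 3′ UTR, and T was first in 87.3% of them. The lincRNA gene 4933406P04Rik had 171 RLTR14 sequences, all sense. Slc4a8, which encodes a sodium bicarbonate transporter, had 171 MurERV4-int sequences in its 3′ UTR, 170 of them sense. Of these 5 genes only Gm42811 had its members mainly antisense.

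Sequences without these names continued some contigs, mainly of RLTR14-int. Chaining at 18 nt was extended through any sequence that maps to 1 position, and 43.8% of members then lay in chains with such flanking sequences, and 19 of the 66 chains of at least 20 members had any. Of the flanking sequences in chains of at least 20 members, 97.7% lay on the members' major strand, and 82.1% of all flanking sequences were unannotated. The largest chain held 2790 RLTR14-int and 3353 unannotated sequences. Another joined 1180 RLTR14-int sequences to 1288 others, 545 of them MURVY-int, a further retroviral name. In a MurERV4-int chain of 782 members, 0 of 16 flanking sequences lay on the members' strand. The 2 largest MurERV4_19-int chains, of 2518 and 1366 members, had no flanking sequence at all. Chains that touch Gm42811 held 58.7% of RLTR14-int sequences that map to 1 position, against 26.1% on the transcript itself.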

How the data were processed

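Testis small RNA of 19 to 33 nt was ligated to linkers and amplified by PCR, per the labels' protocols. The authors deposited 1 pooled list with a sequence, the number of genome positions it maps to and an annotation, per the file headers. The aligner and genome build are not given in the sources used here. Each distinct sequence counted once, so depth per library and read numbers are unknown. Members and lists were chosen with earlier results of these data known. Python 3.11.15, numpy 2.4.6, scipy 1.17.1 and matplotlib 3.10.9 were used. Shares have exact Clopper-Pearson 95% intervals. No group was compared and no p-value computed.

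No genome was used, so loci were replaced by contigs, chained by exact overlaps of at least 16 nt. Transcripts came from GENCODE M21 (GRCm38). The chaining and partner counts were tested on simulated data. The simulated loci were random and unrelated, so the joining of similar repeat copies was not tested. Every name and the 5 contigs and transcripts with most members are named. Sequences were to be printed for each name and from 2 loci. Only those placed on noncoding transcripts are shown, so MurERV4 names have none, and both pairs come from Gm42811. Flank extension and the limits of 20 and 100 sequences were chosen after the data were seen. Alternatives changed the length window, the end length, the overlap, and the counting of each 5′ end.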

Additional observations from a re-analysis of the deposited data

Results flagged for a closer look

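Sequences outside 24 to 33 nt were not used above. They numbered 1962 of 15 to 18 nt, 4750 of 19 to 23 nt and 138 of 34 to 36 nt. T was first in 30.5% of those of 15 to 18 nt, 47.5% of those of 19 to 23 nt and 85.5% of those of 34 to 36 nt (95% interval 78.5 to 90.9%). Of those of 19 to 23 nt, 94.5% lay within a sequence of 24 to 33 nt of the set, 77.3% at its start and 85.9% at its end. Of those of 15 to 18 nt, 68.8% did.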

How the results depend on the processing

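Of 27 alternatives for shares, 9 left the share within its 95% interval and 18 did not. Comparing the whole overlap could not change the share at 10 nt. With each 5′ end counted once, T was first in 57.7%, A stood at position 10 in 30.4%, 89.7% mapped to 1 position and 89.3% of contig 5′ ends lay on the major strand. MurERV4 names alone gave 67.3%, 30.3% and 90.4% for the first 3 of these, and RLTR14 names alone 65.5%, 26.2% and 95.1%. Partners at 10 nt fell to 10.4% for sequences that map to 1 position. At 25 to 32 nt, 2.34 sequences shared a 5′ end and 1.93 a 3′ end. The 5 largest contigs held 56.1% at 14 nt, 37.6% at 18 nt and 42.7% with flanks, and the major strand held 84.2% at 14 nt and 98.0% at 18 nt, with or without flanks. Contig results thus depend on the overlap, and the cause was not tested. The share of 3′ ends followed immediately by a 5′ end was 56.9% at 25 to 32 nt. Merging loci by genome distance was not run, since no genome was used. No paired analysis was possible because the list pools all libraries. Without read numbers, abundance cannot be given, and without a genome, contigs that lie near each other cannot be joined. The 2 flank settings and the minor-strand settings were chosen after the data were seen.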
